A study of Homo sapiens with 12 samples.

Results

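The 35 genes described here encode the glucose carriers, the enzymes of glycolysis, the proteins that handle lactate and pyruvate, and 3 regulators of the pathway. They were chosen by name, as rows of a count table of 56638 genes, and 34 of them were among the 16080 genes that passed a filter on low counts and were tested. The gene that did not pass was SLC16A3, the lactate exporter MCT4, with 0 to 12 counts per library. Glucose enters cells through the SLC2A carriers, is trapped by hexokinases and is broken down to pyruvate, which is then reduced to lactate by lactate dehydrogenase or carried into mitochondria and oxidised by pyruvate dehydrogenase, an enzyme that the PDK kinases switch off. Many tumours, melanomas among them, make much of their lactate in the presence of oxygen. HIF1A, the oxygen-regulated transcription factor, and MYC raise many genes of the pathway, whereas TXNIP and ARRDC4 are glucose-responsive arrestin-like proteins that restrain glucose uptake.

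501Mel is an established human melanoma line that carries a mutant, active BRAF kinase. Its polyadenylated RNA was sequenced 48 h after the start of treatment with the solvent DMSO (vehicle), with 1 μM vemurafenib (Vem), an inhibitor of mutant BRAF, with 10 nM TCDD, the dioxin that activates the aryl hydrocarbon receptor AhR, or with 5 μM resveratrol (RSV), which served as an AhR antagonist. In the last pair of groups RSV was given together with Vem (RSV+Vem) or with TCDD (RSV+TCDD). The label of the RSV+TCDD libraries names 1 nM TCDD, whereas the treatment protocol names 10 nM for every group with TCDD. Each of the 6 groups had 2 libraries of the same cell line, and the labels do not say whether these came from separate cultures, so the p-values below measure the spread between these samples, which may be technical. The question was how far a BRAF inhibitor that binds AhR, an AhR agonist and an AhR antagonist, alone or combined, changed the transcripts of these cells.

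The libraries held between 8378655 and 25076925 counts on genes, of which the 35 genes made up 1.30% to 2.21%. RSV+Vem replicate 2 held the fewest. The RNA integrity numbers, which grade how intact the RNA was, were 8.7 and 8.6 in the RSV+Vem libraries. In the other libraries they were between 9.1 and 9.7. The part of this difference in the comparisons with RSV+Vem was not tested. Melanocytic markers summed to at least 11162 CPM, the counts scaled to a library of fixed size, in every library, whereas markers of keratinocytes, fibroblasts, leukocytes and endothelial cells summed to at most 39.7 CPM per list. Levels are CPM after TMM scaling, which sets the bulk of the genes equal between libraries, so that higher and lower below are relative to the other genes of a library. When the libraries were scaled to the added ERCC spike-in RNA instead, the median of all tested genes moved to -0.68 on the log2 scale for Vem against vehicle, to -0.17 for RSV against vehicle and to -1.02 for RSV+TCDD against RSV. In RNA from whole cultures, fewer cells of a kind and less RNA per cell cannot be told apart. Counts were not corrected for PCR copies.

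The vehicle libraries stood apart from each other in these genes. Of the 34 tested genes, 8 differed by more than 2-fold between vehicle replicates 1 and 2, against 0.840% of all genes in that group and against 0 of the 34 in each of the other 5 groups. TXNIP held 251 counts in vehicle replicate 1 and 1705 in replicate 2, and HK2, the inducible hexokinase, held 6890 and 2970. A list of 18 genes of the hypoxia response outside glycolysis, which includes BNIP3 and VEGFA, summed to 2120 CPM in vehicle replicate 1, to 931 CPM in replicate 2 and to between 765 and 1212 CPM in the other 10 libraries. The part of this difference in the results below was not tested beyond leaving out that library. The calls against vehicle are therefore given with both vehicle libraries and then followed into the fit without replicate 1. The plot of all genes by library shows the gap between the vehicle libraries. Without replicate 1 the spread within vehicle is not measured, so a call in that fit is no check on a call from both. Both vehicle libraries also enter the estimate of spread for comparisons without vehicle.

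**Figure D1:**
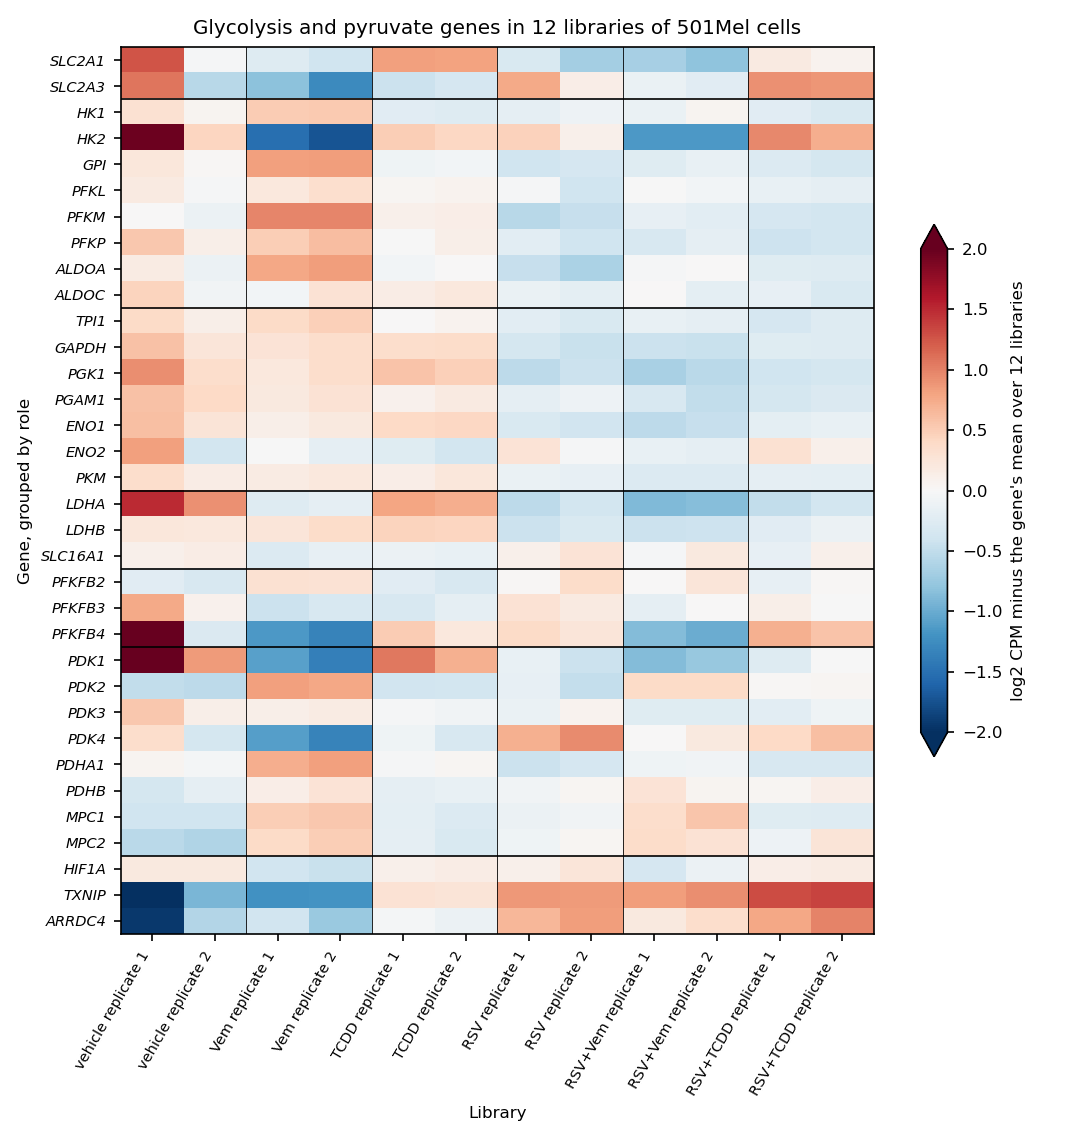
Each row is 1 of the 34 tested genes and each column 1 of the 12 libraries, and the colour is the log2 CPM minus the mean of that gene over all libraries, cut at 2 in either direction. Vehicle replicate 1 is the darkest red for HK2, PFKFB4 and PDK1 and the darkest blue for TXNIP and ARRDC4, and the 6 libraries with RSV are blue for most enzymes from GPI to PKM.

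Compared per length of their exons, as RPKM, which is CPM divided by the exon length in kilobases, the genes spanned a wide range in vehicle. GAPDH stood at 1309 RPKM, ENO1 at 693 RPKM and ALDOA at 474 RPKM. The kinases of the early steps were far lower, HK1 at 46.1 RPKM and HK2 at 39.6 RPKM, and the phosphofructokinase subunits PFKP, PFKM and PFKL at 26.8, 23.7 and 10.1 RPKM. The pyruvate kinase PKM stood at 226 RPKM. Among the PDK kinases PDK4 held 119 RPKM and the other three between 2.98 and 4.64 RPKM. The order of HK1 and HK2 in vehicle did not exceed the spread between its libraries, in which HK2 held 54.0% and 32.5% of the summed hexokinase RPKM. Exon lengths came from all annotated transcripts of a gene, so the RPKM of a gene with long rare exons is understated.

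The windows before the start sites are shown for LDHA, HK2 and ARRDC4. These genes are among those that moved furthest in the comparisons below, and their windows hold the bases ACGTG. The windows of PDK1, PFKFB4, TXNIP and PDK4, which also moved far, hold no ACGTG and are not shown. All windows were read from RefSeq on GRCh38.p14, where 32 of the 35 genes matched, and are the 250 bases before the start site. For 28 of the 32, bases just after that site were found in a GENCODE transcript of the gene. They were not found for PFKM, PFKP, GAPDH and PFKFB3. Other start sites of a gene were not read. Capitals mark ACGTG on either strand, the core of the sequence that HIF dimers bind, and with a C before it CACGTG, the E-box bound by MYC and by the MLX partners of the glucose response. On the plus strand, the windows are chr11:18394313-18394562 for LDHA, chr2:74833877-74834126 for HK2 and chr15:97960453-97960702 for ARRDC4.
LDHA: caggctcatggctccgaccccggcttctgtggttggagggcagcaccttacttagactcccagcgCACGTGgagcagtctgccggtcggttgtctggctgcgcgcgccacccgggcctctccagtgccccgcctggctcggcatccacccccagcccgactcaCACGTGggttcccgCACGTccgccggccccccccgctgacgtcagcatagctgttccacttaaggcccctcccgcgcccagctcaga
HK2: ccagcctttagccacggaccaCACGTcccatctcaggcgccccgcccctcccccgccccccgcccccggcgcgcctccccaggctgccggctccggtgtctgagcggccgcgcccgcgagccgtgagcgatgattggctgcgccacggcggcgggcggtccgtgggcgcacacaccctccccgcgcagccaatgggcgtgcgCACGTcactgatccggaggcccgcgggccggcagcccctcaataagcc
ARRDC4: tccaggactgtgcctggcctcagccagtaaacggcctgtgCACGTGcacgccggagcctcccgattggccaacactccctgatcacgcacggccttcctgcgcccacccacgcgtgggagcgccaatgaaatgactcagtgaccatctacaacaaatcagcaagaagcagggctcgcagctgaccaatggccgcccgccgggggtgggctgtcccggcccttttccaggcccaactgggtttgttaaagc
CACGTG stood in 5 of the 32 windows (ALDOC, GAPDH, LDHA, PDHB and ARRDC4), or 15.6%, and in 6.49% of all 27305 promoter windows of that length. The window of GAPDH is among those whose start site was not found in a transcript. ACGTG, which every CACGTG holds, stood in 34.4% of the 32 and in 18.7% of all. GCGTG, the other core that HIF and AhR dimers bind, stood in 43.8% and 31.9%. These matches describe the exact letters of the windows and no binding was measured. Sequences that differ from these by a base, such as the CACGAG in the window of TXNIP, were not counted.

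With Vem, HK2, PDK1, PFKFB4, LDHA and PDK4 fell furthest among the called genes, while PDK2, PFKM, ALDOA and the mitochondrial pyruvate carrier rose. Of the 34 genes, 10 were higher and 11 lower than in vehicle, which is 29.4% and 32.4%, where 25.5% and 26.9% of all tested genes were called higher and lower. The median log2 fold change was -0.08 over the 34 genes and -0.03 over all genes, and that of the 34 was between -0.20 without vehicle replicate 2 and 0.049 without vehicle replicate 1, and was above 0 without Vem replicate 1 too. A call is a Benjamini-Hochberg adjusted p below 0.05 over all tested genes in the quasi-likelihood test of edgeR, and errors of log2 fold changes are SE.

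HK2 stood at 349 and 120 CPM in vehicle and at 31.5 and 26.8 CPM with Vem, a log2 fold change of -3.00 ± 0.50 (adjusted p = 0.00241). PDK1, the hypoxia-induced PDK kinase, stood at 101 and 36.7 CPM in vehicle and at 9.60 and 7.92 CPM with Vem (-2.97 ± 0.49, adjusted p = 0.00182). Both genes were far below both vehicle libraries, and without vehicle replicate 1 the log2 fold changes were -2.04 for HK2 and -2.07 for PDK1. PFKFB4, one of the enzymes that make the activator of phosphofructokinase, fell from 76.2 and 15.7 CPM to 8.69 and 7.61 CPM (-2.48 ± 0.73, adjusted p = 0.0277), and its log2 fold change was -0.95 without vehicle replicate 1. PFKFB3, its better known relative, was called lower too, with 67.0 and 42.0 CPM in vehicle against 29.3 and 31.7 CPM, whereas PFKFB2 rose from 67.2 and 62.5 CPM to 97.0 and 95.4 CPM. The carriers SLC2A1 and SLC2A3, at 1181 and 484 CPM and at 80.0 and 25.9 CPM in vehicle, stood at 414 and 377 CPM and at 21.6 and 15.7 CPM with Vem. Their groups did not overlap, but neither passed the test (adjusted p = 0.0527 for SLC2A1 and 0.0541 for SLC2A3).

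LDHA, the lactate dehydrogenase subunit that favours lactate formation, was at 1794 and 1210 CPM in vehicle and at 533 and 568 CPM with Vem (-1.45 ± 0.14, adjusted p = 4.47e-07). Without vehicle replicate 1 its log2 fold change was -1.14. LDHB, the subunit that favours the reverse reaction, was at 856 and 845 CPM in vehicle and at 865 and 944 CPM with Vem and was not called. HIF1A itself fell from 185 CPM in both vehicle libraries to 124 and 119 CPM. Of the 7 enzymes of lower glycolysis 3 were called lower, PGK1, PGAM1 and ENO1, with log2 fold changes between -0.39 and -0.26, and none of these 3 was called without vehicle replicate 1.

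The 10 higher genes were 4 of upper glycolysis, PFKFB2, both subunits of the mitochondrial pyruvate carrier, PDHA1, PDHB and PDK2. PFKM, the muscle-type phosphofructokinase, rose from 180 and 164 CPM to 350 and 352 CPM (1.03 ± 0.08, adjusted p = 1.24e-08), and ALDOA, an aldolase, from 1998 and 1634 CPM to 3030 and 3156 CPM (0.77 ± 0.09, adjusted p = 2.00e-06). GPI and HK1 were higher as well, so that 4 of the 8 genes of upper glycolysis rose and HK2 alone of them was called lower. MPC1 and MPC2, the subunits of the mitochondrial pyruvate carrier, rose by 0.92 ± 0.11 (adjusted p = 9.25e-07) and 1.01 ± 0.12 (adjusted p = 8.11e-07) on the log2 scale, MPC1 from 30.0 CPM in both vehicle libraries to 55.8 and 57.5 CPM. PDHA1 and PDHB, subunits of the first enzyme of the pyruvate dehydrogenase complex, were both called higher. Among the kinases that inhibit this complex, PDK2 rose from 17.5 and 17.2 CPM to 43.5 and 42.3 CPM (1.31 ± 0.12, adjusted p = 6.42e-08) and PDK4 fell from 672 and 413 CPM to 245 and 208 CPM (-1.26 ± 0.21, adjusted p = 8.47e-04). All 10 genes called higher were also called without vehicle replicate 1, and 8 of the 11 called lower. Without Vem replicate 1, 6 genes were called lower, HK2, PDK1, PDK4, PFKFB3, LDHA and HIF1A. With spike-in scaling none of the 10 passed the test and HK1, PDHB and PFKFB2 took the opposite sign, whereas 7 of the 11 lower genes were called lower. Over all 16080 tested genes, 195 were then called higher and 3620 lower.

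**Figure D2:**
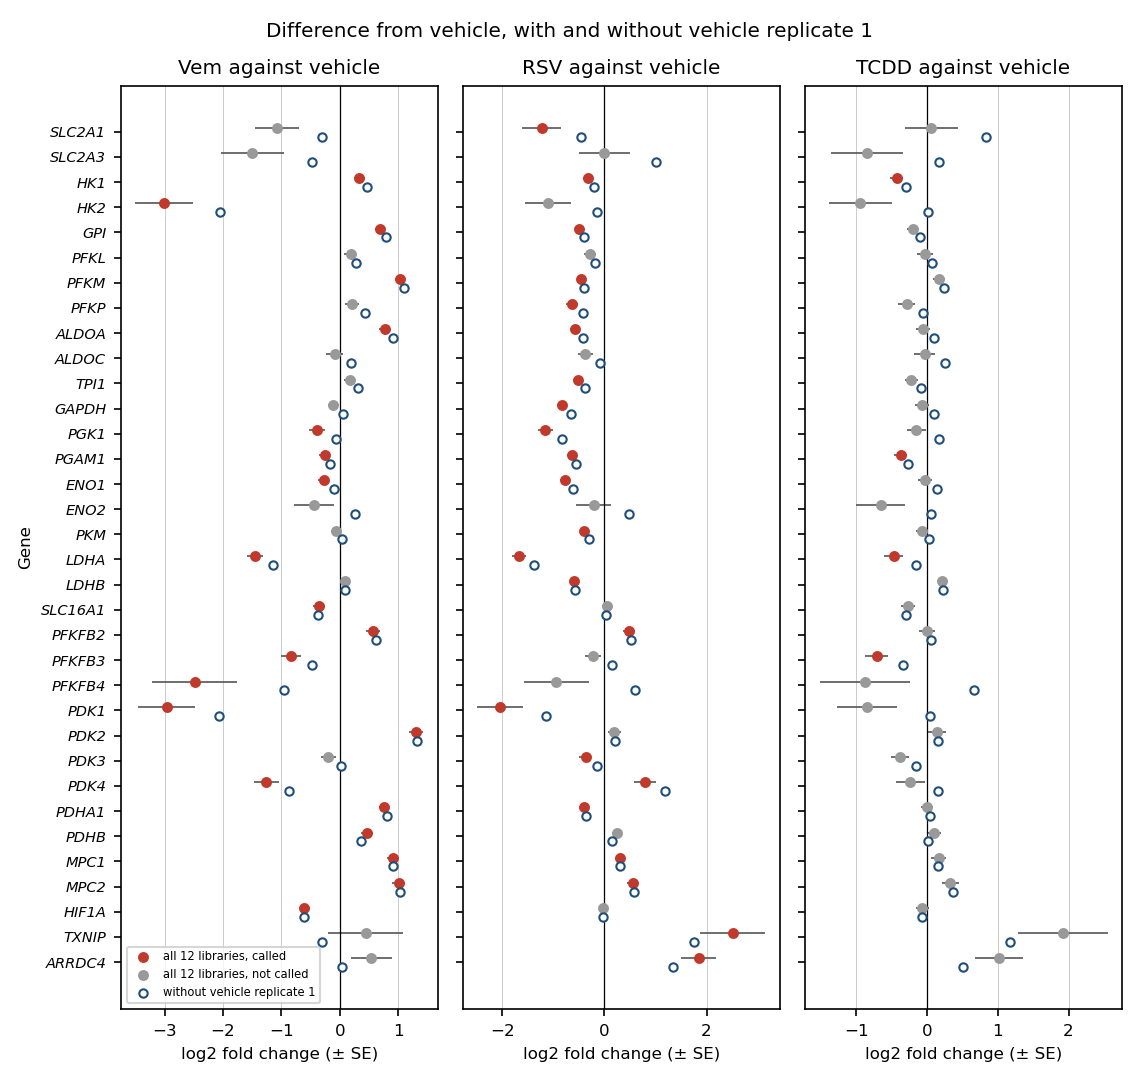
The x axes give the log2 fold change against vehicle for Vem, RSV and TCDD, with filled points for all 12 libraries (red, called, and grey, not called, bars ± SE) and open points for the fit without vehicle replicate 1. The open points of SLC2A1, SLC2A3, HK2, PFKFB4, PDK1 and TXNIP lie furthest from the filled ones, while those of PFKM, MPC1, MPC2, PDHA1 and PDK2 lie close to them.

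With RSV, most enzymes of lower glycolysis fell and TXNIP and ARRDC4, the restraints on glucose uptake, rose. Of the 34 genes, 17 were lower and 6 higher than in vehicle, or 50% and 17.6%, where 20.2% of all tested genes were called lower and 20.5% higher. The median log2 fold change was -0.38 over the 34 genes and 0.00 over all genes, and was -0.17 over the genes without vehicle replicate 1. In lower glycolysis 6 of 7 enzymes fell, all but the neuronal enolase ENO2, and in upper glycolysis 5 of 8. LDHA stood at 444 and 495 CPM against 1794 and 1210 CPM in vehicle (-1.68 ± 0.14, adjusted p = 4.96e-07), and PGK1, the first ATP-making enzyme of the pathway, at 601 and 643 CPM against 1661 and 1105 CPM (-1.15 ± 0.14, adjusted p = 2.02e-05). GAPDH, often used as a reference gene, stood at 1837 and 1708 CPM against 3500 and 2774 CPM (-0.82 ± 0.09, adjusted p = 3.48e-06). In these 3 genes the RSV libraries lay below both vehicle libraries, and without vehicle replicate 1 the log2 fold changes were -1.37 for LDHA, -0.84 for PGK1 and -0.65 for GAPDH.

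PDK1 fell from 101 and 36.7 CPM to 18.4 and 15.1 CPM with RSV (-2.04 ± 0.45, adjusted p = 0.0103), and SLC2A1, the more abundant of the SLC2A1 and SLC2A3 carriers in RPKM, from 1181 and 484 CPM to 401 and 309 CPM (-1.23 ± 0.38, adjusted p = 0.0418). Without vehicle replicate 1 the log2 fold change of SLC2A1 was -0.45. SLC2A3, the high-affinity carrier, stood at 64.0 and 41.6 CPM with RSV, between the vehicle libraries, and was not called. Its log2 fold change was 1.02 when vehicle replicate 1 was left out. In that fit the log2 fold changes of ENO2 and PFKFB4, negative with both vehicle libraries, were positive too.

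TXNIP rose from 12.7 and 69.0 CPM to 236 and 235 CPM with RSV (2.51 ± 0.64, adjusted p = 0.0223), and its relative ARRDC4 from 8.15 and 20.6 CPM to 49.4 and 55.4 CPM (1.84 ± 0.34, adjusted p = 0.00307). Both genes were above both vehicle libraries, and against replicate 2 alone the log2 fold changes were 1.76 for TXNIP and 1.34 for ARRDC4. PDK4, the kinase induced by fasting, rose from 672 and 413 CPM to 864 and 1019 CPM (0.80 ± 0.21, adjusted p = 0.0143). MPC2 (0.55 ± 0.11, adjusted p = 9.49e-04) and PFKFB2 (0.48 ± 0.12, adjusted p = 0.00373) were also called higher, as was MPC1. Without vehicle replicate 1, 5 of these 6 genes and 15 of the 17 lower ones were called. TXNIP and PDK4 were not called when either RSV library was left out, and each of these fits called 3 genes higher, ARRDC4 and MPC2 in both. With spike-in scaling every one of the 23 genes had the same sign, and 2 of the 6 and 2 of the 17 passed the test.

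**Figure D3:**
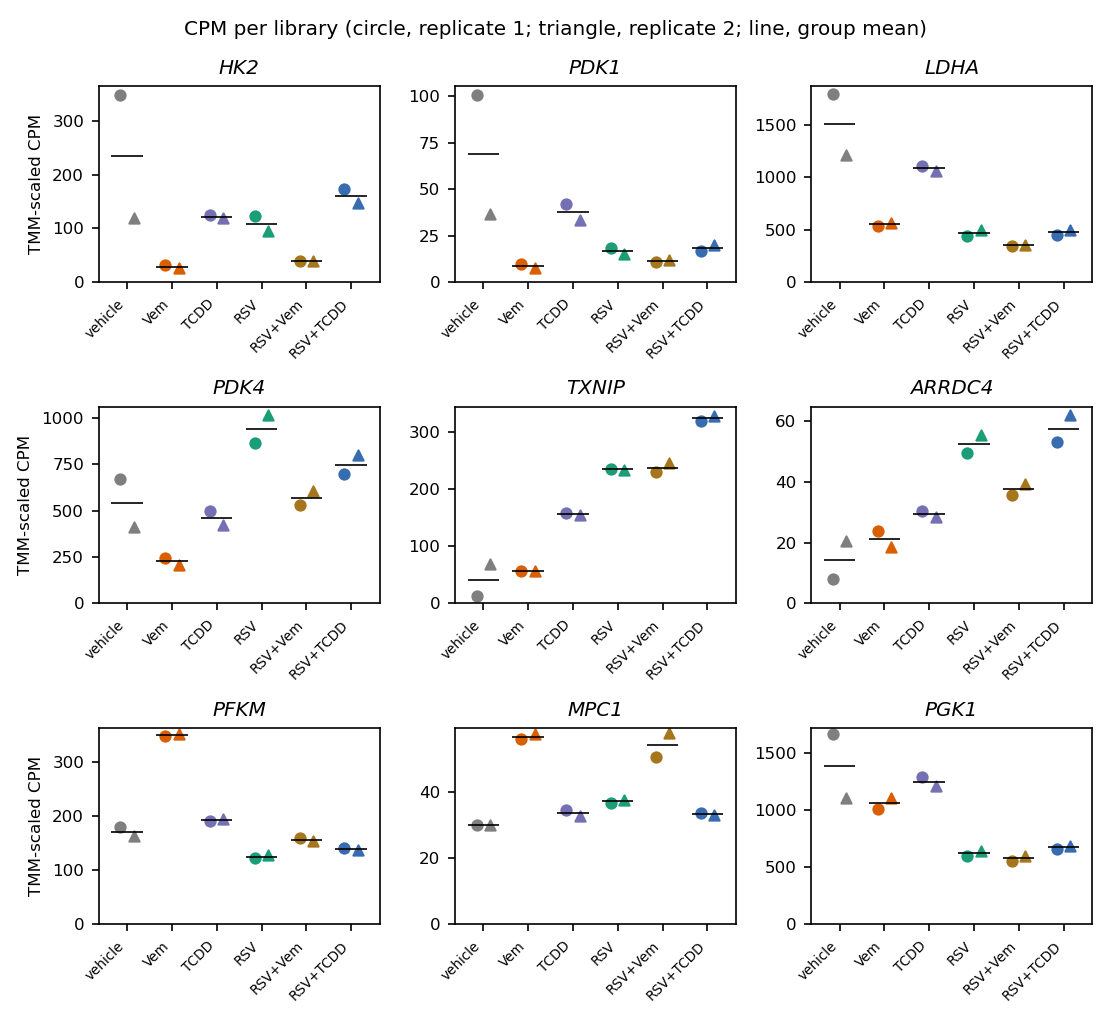
CPM after TMM scaling in each of the 12 libraries for 9 genes, on linear axes that start at 0, with circles for replicate 1, triangles for replicate 2 and lines for group means. HK2 is lowest in the groups with Vem, LDHA and PGK1 are low in all 3 groups with RSV, and TXNIP rises from 12.7 CPM in vehicle replicate 1 to 329 CPM in RSV+TCDD replicate 2.

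TCDD changed few of the genes in the fit of all 12 libraries, and the sign of some depended on which vehicle library was kept. None of the 34 was called higher and 4 (11.8%) were called lower, where 4.72% and 2.01% of all tested genes were called. At an unadjusted p below 0.05 there were 13 genes, and DESeq2 called 1 gene higher. PFKFB3 stood at 31.7 and 34.8 CPM against 67.0 and 42.0 CPM in vehicle (-0.71 ± 0.17, adjusted p = 0.0166), and HK1, the constitutive hexokinase, at 238 and 233 CPM against 345 and 289 CPM (-0.43 ± 0.09, adjusted p = 0.00983). LDHA (-0.47 ± 0.13, adjusted p = 0.0475) and PGAM1 (-0.37 ± 0.09, adjusted p = 0.0208) were the other called genes. TXNIP stood at 158 and 154 CPM, above both vehicle libraries, with a log2 fold change of 1.92 ± 0.63 that was not called (adjusted p = 0.15). Without vehicle replicate 1, TCDD replicate 1 or TCDD replicate 2, none of the 4 lower genes was called. In the fit without vehicle replicate 1, the log2 fold changes were 1.18 for TXNIP, 0.84 for SLC2A1 and 0.66 for PFKFB4. Without vehicle replicate 2, those of SLC2A1 and PFKFB4 were negative and that of TXNIP was positive. When 1 library was left out at a time, the median log2 fold change of the genes ranged from -0.26 to 0.063.

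With RSV present, Vem raised pyruvate carrier genes, PDK2, ALDOA, PFKM and PDHA1 and lowered PDK4, LDHA, HIF1A and PGAM1. RSV+Vem against RSV shares no library with Vem against vehicle. Of the 34 genes 6 were higher and 4 lower, or 17.6% and 11.8%, where 11.3% and 13.4% of all genes were called. The 6 higher genes were PDK2, MPC1, ALDOA, MPC2, PFKM and PDHA1, and all of them had been called higher with Vem alone, which is 100% of the 6 and 60% of the 10 there. For all tested genes those shares were 74.8% and 33.3%. The 4 lower genes, PDK4, LDHA, HIF1A and PGAM1, were 36.4% of the 11 lower genes with Vem alone, and the share for all genes was 35.7%.

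PDK2 stood at 32.2 and 32.3 CPM with RSV+Vem against 22.1 and 17.7 CPM with RSV (0.70 ± 0.12, adjusted p = 4.92e-04), and MPC1 at 50.5 and 57.8 CPM against 36.6 and 37.5 CPM (0.54 ± 0.11, adjusted p = 0.00115). ALDOA stood at 1751 and 1779 CPM against 1296 and 1143 CPM (0.53 ± 0.09, adjusted p = 4.90e-04). MPC2 (0.35 ± 0.11, adjusted p = 0.0308) and PFKM (0.32 ± 0.08, adjusted p = 0.0104) moved less. Apart from PDK2, the signs of the 6 were opposite with spike-in scaling, under which the median of all genes was -0.52. PDK4 fell from 864 and 1019 CPM to 529 and 607 CPM (-0.73 ± 0.21, adjusted p = 0.0329) and LDHA from 444 and 495 CPM to 348 and 354 CPM (-0.42 ± 0.13, adjusted p = 0.0337). HIF1A (-0.39 ± 0.09, adjusted p = 0.00446) and PGAM1 (-0.26 ± 0.09, adjusted p = 0.0493) completed the 4. HK2 stood at 40.1 and 40.0 CPM against 122 and 95.5 CPM, groups that did not overlap, and its log2 fold change of -1.44 ± 0.48 was not called (adjusted p = 0.0767). None of the 4 lower genes was called when RSV+Vem replicate 1 was left out, and HIF1A alone of them was called when RSV+Vem replicate 2 or either RSV library was left out. Without RSV+Vem replicate 1, 3 genes were called higher, MPC1, ALDOA and PDK2.

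The difference between the effect of Vem with RSV and without it was tested as an interaction. It was called for 8 genes, 2 with a positive and 6 with a negative value, or 5.88% and 17.6%, where the shares over all genes were 11.8% and 10.9%. The positive values were those of genes that Vem lowered less when RSV was present, PDK1 (2.43 ± 0.70, adjusted p = 0.0478) and LDHA (1.03 ± 0.19, adjusted p = 0.00145). RSV alone had already lowered both, to group means of 16.7 CPM for PDK1 and 469 CPM for LDHA. With RSV+Vem they stood at 11.6 and 351 CPM, against 8.76 and 550 CPM with Vem. The negative ones were led by PFKM (-0.71 ± 0.12, adjusted p = 3.67e-04), MPC2 (-0.66 ± 0.16, adjusted p = 0.00699) and PFKFB2 (-0.65 ± 0.17, adjusted p = 0.00991), genes that Vem raised less or not at all with RSV. PFKM, for instance, differed by 1.03 between Vem and vehicle and by 0.32 between RSV+Vem and RSV. All 8 were also called without vehicle replicate 1, with values of 1.54 for PDK1 and 0.72 for LDHA. PDK1 was not called when any library with Vem, RSV or RSV+Vem was left out, whereas LDHA was called in each of these fits. The median interaction over the tested genes of the pathway ranged from -0.17 to 0.074 when 1 library was left out at a time. None of the 8 was called with spike-in scaling, where all 8 had the same sign.

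**Figure D4:**
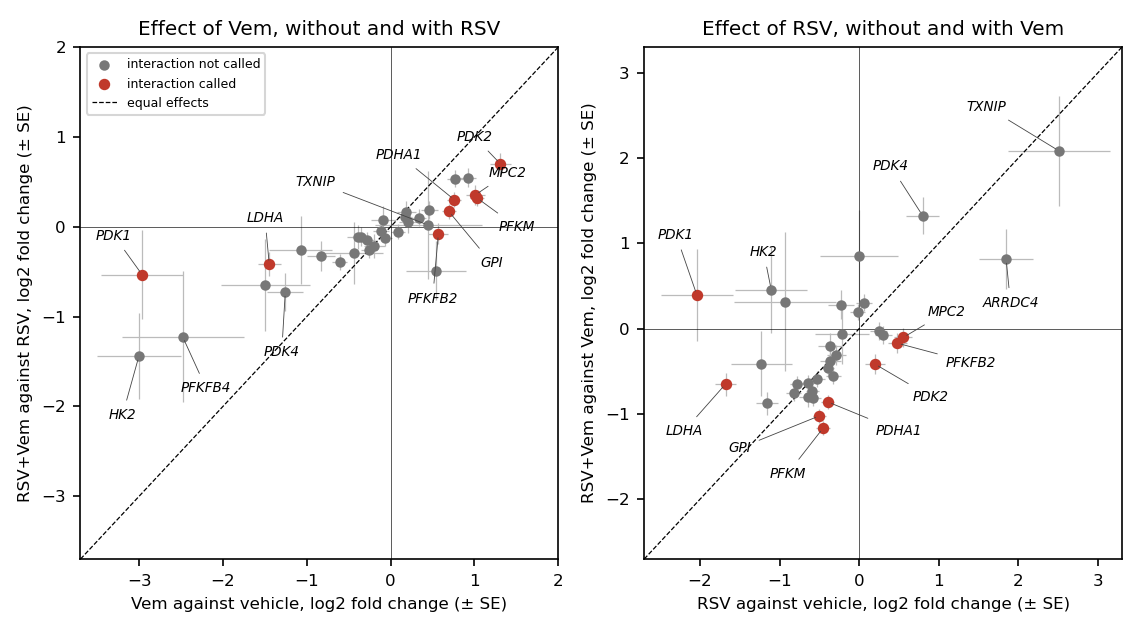
The left panel sets the log2 fold change of each gene for Vem against vehicle (x axis) against that for RSV+Vem against RSV (y axis), and the right panel sets RSV against vehicle against RSV+Vem against Vem, with bars of ± SE. Red points are the 8 genes with a called interaction, and the dashed line marks equal effects. In the left panel PDK1, LDHA, PFKM and PDK2 lie nearer to 0 on the y axis than on the x axis.

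With Vem present, 6 of 8 enzymes of upper and 6 of 7 of lower glycolysis were lower with RSV. RSV+Vem against Vem, which shares no library with RSV against vehicle, gave 17 lower and 3 higher genes, or 50% and 8.82%, where 18.7% and 19.1% of all tested genes were called. The median log2 fold change was -0.34 over the 34 genes and 0.03 over all genes. In both comparisons 15 genes were called lower, which is 88.2% of each list, and for all genes the shares were 42.3% and 45.6%. They were HK1, GPI, PFKM, PFKP, ALDOA, TPI1, GAPDH, PGK1, PGAM1, ENO1, PKM, LDHA, LDHB, PDK3 and PDHA1. PFKM fell furthest, from 350 and 352 CPM with Vem to 159 and 154 CPM with RSV+Vem (-1.16 ± 0.09, adjusted p = 1.90e-08), and GPI, the isomerase that follows hexokinase, from 670 and 675 CPM to 321 and 342 CPM (-1.02 ± 0.09, adjusted p = 7.50e-08). For both genes the RSV+Vem libraries lay far below the Vem libraries. PGK1 (-0.88 ± 0.14, adjusted p = 1.71e-04), PDHA1 (-0.86 ± 0.08, adjusted p = 3.82e-07) and ALDOA (-0.81 ± 0.09, adjusted p = 2.84e-06) came next.

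The 3 genes that rose with RSV over Vem alone were TXNIP, from 55.9 and 56.6 CPM to 231 and 246 CPM (2.08 ± 0.64, adjusted p = 0.0451), PDK4, from 245 and 208 CPM to 529 and 607 CPM (1.32 ± 0.21, adjusted p = 0.00107), and SLC16A1 (0.30 ± 0.10, adjusted p = 0.0256), the lactate carrier MCT1. TXNIP and PDK4 had also risen with RSV alone. ARRDC4 stood at 35.5 and 39.5 CPM against 23.9 and 18.5 CPM and was not called (adjusted p = 0.102). Without Vem replicate 1 or 2, PDK4 was the 1 gene called higher. With spike-in scaling the signs of the 20 genes were unchanged, and 1 of the 3 and none of the 17 passed the test. The log2 fold changes were then -1.20 ± 0.42 for PFKM, -1.08 ± 0.42 for GPI, -0.90 ± 0.42 for PDHA1 and -0.85 ± 0.43 for ALDOA.

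With TCDD present, 6 of 7 enzymes of lower glycolysis and both lactate dehydrogenase subunits were lower with RSV. RSV+TCDD against TCDD, which again shares no library with RSV against vehicle, gave 13 lower and 4 higher genes, or 38.2% and 11.8%, where 19.1% and 18.6% of all tested genes were called. Of the 13 lower genes 12 had been called lower with RSV alone, which is 92.3% of the 13 and 70.6% of the 17, and the shares for all genes were 74.8% and 70.8%. LDHA stood at 453 and 494 CPM against 1108 and 1058 CPM with TCDD (-1.19 ± 0.13, adjusted p = 1.28e-05), PGK1 at 661 and 682 CPM against 1286 and 1208 CPM (-0.89 ± 0.14, adjusted p = 1.81e-04), and LDHB at 625 and 671 CPM against 993 and 986 CPM (-0.61 ± 0.08, adjusted p = 2.11e-05). The groups did not overlap in any of the 3. GAPDH (-0.60 ± 0.09, adjusted p = 9.36e-05) and ENO1 (-0.58 ± 0.09, adjusted p = 1.27e-04) were next. This contrast takes no mean from the vehicle libraries, but they enter the estimate of spread behind its p-values. When only the libraries compared were fitted, 10 of the genes and 3522 of all 15218 tested genes were called higher.

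ARRDC4 rose from 30.3 and 28.6 CPM with TCDD to 53.2 and 62.0 CPM with RSV+TCDD (0.97 ± 0.33, adjusted p = 0.0480), and PDK4 from 500 and 422 CPM to 696 and 801 CPM (0.70 ± 0.21, adjusted p = 0.0274). PDK2 (0.40 ± 0.12, adjusted p = 0.0154) and MPC2 (0.33 ± 0.11, adjusted p = 0.0303) were the other higher genes. With spike-in scaling, under which the median of all genes was -0.70, PDK4, PDK2 and MPC2 took the opposite sign. TXNIP was at 321 and 329 CPM with RSV+TCDD, the highest of all groups, and against 158 and 154 CPM with TCDD its log2 fold change of 1.06 ± 0.61 was not called (adjusted p = 0.226). When TCDD replicate 1 or 2 was left out none of the 4 higher genes was called, and when an RSV+TCDD library was left out MPC2 was the only one called, in the fit without replicate 1.

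Adding TCDD to RSV called no gene of the 34 in either direction, where 3.89% and 2.28% of all tested genes were called higher and lower. At an unadjusted p below 0.05 there were 5 genes, and DESeq2 also called 0 in each direction. The log2 fold changes spanned -0.33 for PDK4 to 0.60 for SLC2A1, which stood at 401 and 309 CPM with RSV and at 558 and 521 CPM with RSV+TCDD. Without RSV replicate 1, ALDOA and PDK2 were called higher and PFKFB2 lower. The interaction of RSV and TCDD was likewise called for 0 of the 34 genes, with 6 at an unadjusted p below 0.05 and 0 by DESeq2, where 0.0124% and 0.137% of all genes were called with a positive and a negative value. That interaction rests on the vehicle libraries, and its median over the 34 genes ranged from 0.027 to 0.31 when 1 library was left out at a time.

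Where several genes encode the same step, their shares differed between the groups. HK2 held 43.3% ± 15.2 (SD, n = 2) of the hexokinase RPKM in vehicle, 7.82% ± 0.84 with Vem, 14.7% ± 1.2 with RSV+Vem and between 33.2% and 44.5% in the other 3 groups. The 4 libraries with Vem lay below the other 8. LDHA held 46.2% ± 6.7 of the lactate dehydrogenase RPKM in vehicle, 35.1% ± 0.6 with TCDD, 29.1% ± 0.3 with RSV, 26.6% ± 0.2 with RSV+TCDD, 24.2% ± 0.1 with RSV+Vem and 23.2% ± 0.3 with Vem, so that the vehicle libraries held the largest shares. PFKM held 53.3% ± 1.3 of the phosphofructokinase RPKM with Vem and between 39.3% and 45.6% in the other groups. ENO2 and SLC2A3 held their largest shares in the groups with RSV, where ENO2 held between 9.70% and 10.6% of the enolase RPKM and SLC2A3 between 9.33% and 11.8% of that of both carriers. PDK4 made up between 81.8% and 96.7% of the RPKM of the PDK kinases in every group, and PDK2 held 12.9% ± 1.0 with Vem against 2.57% ± 0.83 in vehicle. These shares do not depend on the scaling between libraries, but their size within a group depends on the exon lengths used. Those were 6026 bases for LDHA and 2983 bases for LDHB. In CPM, LDHA stood above LDHB in vehicle, at group means of 1502 and 850 CPM. The shares are given without a test, since 2 libraries against 2 cannot reach a p below 0.05 in an exact permutation test.

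**Figure D5:**
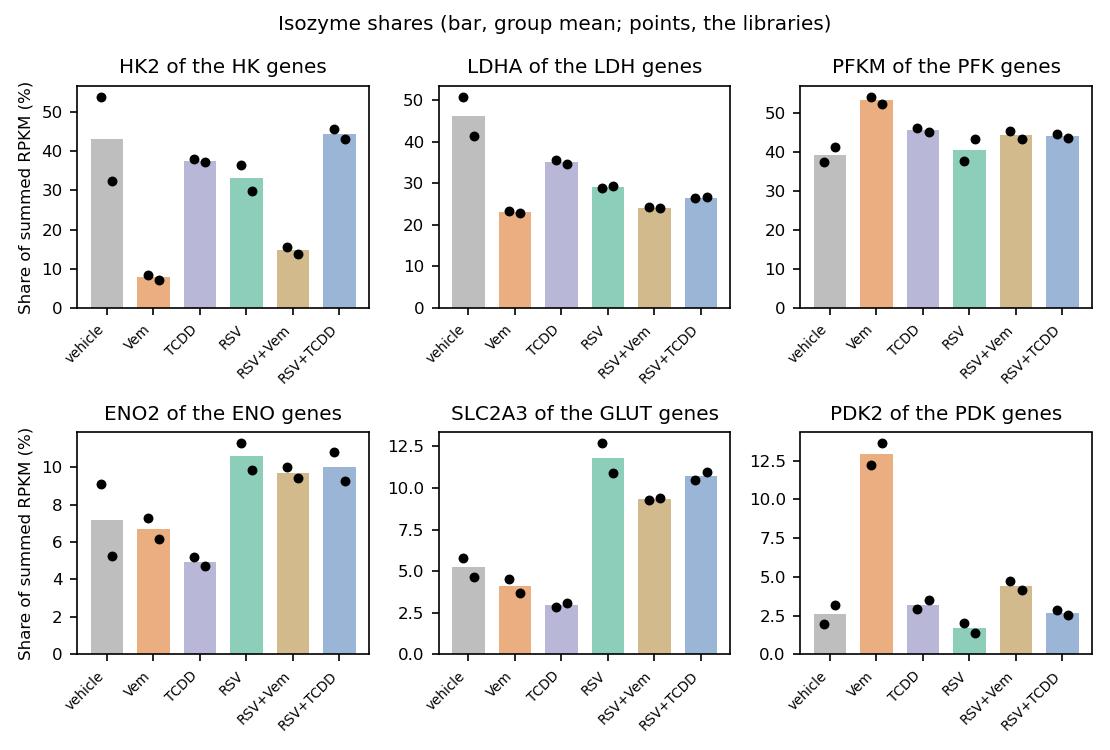
Share of the summed RPKM of genes for the same step, in percent, for 6 genes in the 6 groups, with bars for group means that start at 0 and points for the 2 libraries. HK2 is lowest in Vem and RSV+Vem, LDHA is highest in vehicle, PFKM and PDK2 are highest in Vem, and ENO2 and SLC2A3 are highest in the 3 groups with RSV.

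Other genes of the pathway, from a list of 37 of which 28 were tested, moved in both directions. Vem raised 12 and lowered 7 of them, or 42.9% and 25%, RSV raised 8 and lowered 6, or 28.6% and 21.4%, and TCDD raised 2 and lowered 1, or 7.14% and 3.57%, where the shares of all tested genes were 25.5% and 26.9% for Vem, 20.5% and 20.2% for RSV and 4.72% and 2.01% for TCDD. Without vehicle replicate 1 the counts were 13 and 5 for Vem, 7 and 4 for RSV and 1 and 0 for TCDD. The hexokinase-like gene HKDC1 (2.26 ± 0.22) and LDHD, the dehydrogenase of D-lactate (2.85 ± 0.27), were among those that rose furthest with Vem, and HKDC1 (1.67 ± 0.22) and SLC2A10 (2.08 ± 0.14), another carrier of the SLC2A family, rose with RSV. SLC16A7, a monocarboxylate carrier, fell with RSV added to Vem (-1.30 ± 0.17). Of 7 genes of the pentose phosphate pathway, 3 rose and 2 fell with Vem, or 42.9% and 28.6%, and 3 rose and 3 fell with RSV, or 42.9% each, against the same shares of all genes, and without vehicle replicate 1 the counts were 3 and 2 with Vem and 2 and 3 with RSV. RPIA, the isomerase of ribose phosphate, was among those that fell with RSV (-0.83 ± 0.12). Of 16 tested genes of the hypoxia response, Vem raised 2 and lowered 6, or 12.5% and 37.5%, RSV raised 1 and lowered 4, or 6.25% and 25%, and 0 were called with TCDD. Vehicle replicate 1 held more of this list than any other library, as given above. Without it 3 genes were higher and 5 lower with Vem, 6 higher and 4 lower with RSV, and 3 higher with TCDD, and without vehicle replicate 2 the counts lower were 12 with Vem, 12 with RSV and 11 with TCDD. ERO1L was lower in both, at -1.48 ± 0.21 with Vem and -1.0 ± 0.21 with RSV, and without vehicle replicate 1 its values were -1.08 and -0.60.

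Of 8 tested transcription regulators of the pathway, Vem raised 5 and lowered 2, or 62.5% and 25%. RSV raised 2 and lowered 2, or 25% each, and 0 were called with TCDD. The shares of all tested genes were 25.5% and 26.9% for Vem and 20.5% and 20.2% for RSV. Among the 8, MYC moved furthest. It stood at 103 and 96.7 CPM in vehicle, at 15.6 and 16.4 CPM with Vem (-2.63 ± 0.14) and at 26.6 and 19.2 CPM with RSV (-2.12 ± 0.13). With TCDD it was at 107 and 122 CPM, and with RSV+TCDD at 30.3 and 29.5 CPM (-1.94 ± 0.13 against TCDD). Its vehicle libraries lay close together. EPAS1, the HIF relative HIF2A, rose with Vem (1.48 ± 0.09) and with RSV (1.12 ± 0.09), and PPARGC1A, a coactivator of mitochondrial genes, rose with Vem (0.64 ± 0.15) and fell with RSV (-1.18 ± 0.16).

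All 35 genes are protein-coding, and their positions were taken from GENCODE on GRCh37. HK2 lies at chr2:75061254-75120486 on the plus strand, LDHA at chr11:18416107-18429972 on the plus strand, PDK1 at chr2:173420101-173473397 on the plus strand, TXNIP at chr1:145438490-145442635 on the plus strand and PDK4 at chr7:95212811-95225828 on the minus strand. Reads could be lost to near-identical processed copies, of which the table lists 102 for 13 of the genes. In each library these copies held at most 1.96% of the counts of their parent, the largest being those of TPI1. PGAM4, a near-identical retrocopy of PGAM1 with a name of its own, held between 5.81% and 8.01% of the counts of PGAM1, so the values of PGAM1 are less certain.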

How the data were processed

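RNA of 501Mel cells was sequenced in 12 libraries, 2 for each of 6 treatments. Per the labels and the methods, the authors made stranded mRNA libraries, aligned paired reads with STAR 2.4.0a to hg19 (GRCh37) and summed them per gene symbol with featureCounts of Subread 1.5.0-p3. The annotation release is not given in the sources used here. The deposited values are raw counts, without normalization, for 56638 genes and for 96 control sequences, which include 92 ERCC spike-ins and were left out of the tests. The methods state strand setting 1 of featureCounts. The antisense genes HIF1A-AS1, HIF1A-AS2 and SLC2A1-AS1 held at most 224 counts per library.

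Genes were filtered with filterByExpr by group, which left 16080, and scaled with TMM factors between 0.890 and 1.08. With edgeR 4.0.16 (R 4.3.3), all 12 libraries entered a robust quasi-likelihood fit that had 1 term for each group, and each contrast was tested with its F test and Benjamini-Hochberg adjustment over all tested genes, at 0.05. An interaction is the effect of Vem or TCDD with RSV minus that without RSV. Comparisons that share a control group share its libraries, and overlaps are given only for comparisons without a common library. RPKM used exon lengths of GENCODE v44 on GRCh37. Genes were described in full if they were among the 5 largest or 5 smallest log2 fold changes of called genes whose groups do not overlap in CPM, or among 3 in each direction for an interaction. From the other lists at most 4 called genes per comparison were named, by size. The genes, lists and rules were chosen with earlier results of these data known.

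The alternatives were DESeq2 1.42.0, RLE factors, scaling to the spike-ins, no filter, a minimum of 10 counts in each library, blocks by replicate number, non-robust spread, processed copies added to their parents, only the libraries compared, and each library left out. Non-robust spread, and leaving out a vehicle library for the other lists, were chosen after seeing the data. The steps were run on simulated counts in which each gene had the same spread in all groups. The simulation does not cover the larger spread of these genes between the vehicle libraries. Plots were made in Python 3.11.15 with matplotlib 3.10.9. Read-level data were not used here.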

Additional observations from a re-analysis of the deposited data

Results flagged for a closer look

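The effect of Vem differed with and without RSV, by the test of the interaction in edgeR with Benjamini-Hochberg adjustment, for 8 of the 34 tested genes. The difference in log2 fold change was 2.43 for PDK1, 1.03 for LDHA, -0.71 for PFKM, -0.66 for MPC2, -0.65 for PFKFB2, -0.61 for PDK2, -0.52 for GPI and -0.46 for PDHA1. RSV alone had already changed PDK1 and LDHA by -2.04 and -1.68 against vehicle. For PDK1 and LDHA the change with Vem was -2.97 and -1.45 without RSV and -0.53 and -0.42 with it. For PFKM it was 1.03 and 0.32, for MPC2 1.01 and 0.35, for PFKFB2 0.57 and -0.08, for PDK2 1.31 and 0.70, for GPI 0.69 and 0.17, and for PDHA1 0.76 and 0.30. The same test reads as the effect of RSV with Vem minus that without it, in which GPI and PFKM fell further with Vem present.

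Without vehicle replicate 1 the 8 values were 1.54 for PDK1, 0.72 for LDHA, -0.77 for PFKM, -0.68 for MPC2, -0.70 for PFKFB2, -0.62 for PDK2, -0.62 for GPI and -0.51 for PDHA1, and all were called. PDK1 was not called when any library with Vem, RSV or RSV+Vem was left out. The vehicle libraries differed most in PDK1 and LDHA among these genes, at 101 and 36.7 CPM and at 1794 and 1210 CPM, and the part of that difference in their interactions beyond these values was not tested. No group had enough libraries for a test of single outlying samples.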

How the results depend on the processing

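Leaving out a vehicle library and scaling to the spike-ins changed the results most. The spike-ins held between 0.0310% and 0.0936% of the counts, and 0.0389% and 0.0903% in the RSV+Vem replicates. With this scaling, the counts higher and lower were 0 and 10 for Vem, 2 and 2 for RSV and 0 and 0 for TCDD against vehicle, 0 and 2 for RSV+Vem against RSV, 1 and 0 for RSV+Vem against Vem, 0 and 15 for RSV+TCDD against RSV, 0 and 7 for RSV+TCDD against TCDD, and 0 and 0 for the interaction of RSV and Vem. Over all 16080 tested genes, counts against vehicle were 195 and 3620 for Vem, 256 and 113 for RSV and 2 and 8 for TCDD. For RSV+Vem they were 20 and 461 against RSV and 334 and 55 against Vem. For RSV+TCDD they were 1 and 6926 against RSV and 160 and 1752 against TCDD. The interaction of RSV and Vem gave 8 and 0 over all genes. The medians of the 34 genes were then -0.73 for Vem and -0.58 for TCDD against vehicle, -0.64 for RSV+Vem against RSV, -0.38 for RSV+Vem against Vem, -0.95 for RSV+TCDD against RSV, -0.85 for RSV+TCDD against TCDD and -0.33 for the interaction of RSV and TCDD. In RSV+Vem against RSV the values of MPC1 (-0.012), ALDOA (-0.0025), MPC2 (-0.15), PFKM (-0.19) and PDHA1 (-0.22) turned, and in RSV+TCDD against TCDD those of PDK4 (-0.014), PDK2 (-0.29) and MPC2 (-0.39).

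When only the libraries compared were fitted, 6 genes were lower with Vem, 2 higher with RSV and 2 lower with TCDD against vehicle, 8 lower in RSV+Vem against RSV, 6 higher in RSV+Vem against Vem, 3 higher in RSV+TCDD against RSV, 10 higher in RSV+TCDD against TCDD and 1 positive for the interaction of RSV and Vem. TCDD against vehicle gave 1 higher gene with DESeq2 and 2 with non-robust spread, and without a filter RSV+TCDD against RSV and the interaction of RSV and TCDD gave 1 each. For the other counts and these settings, the value stayed within 1.5 times that of the report, the cause of the changes was not tested, and RLE factors, at least 10 counts and added processed copies moved no count or median.

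When 1 library was left out at a time, the counts higher were 10 to 12 for Vem, 3 to 8 for RSV and 0 to 3 for TCDD against vehicle, 3 to 6 for RSV+Vem against RSV, 1 to 2 for RSV+Vem against Vem, 0 to 2 for RSV+TCDD against RSV, 0 to 2 for RSV+TCDD against TCDD, 1 to 10 for the interaction of RSV and Vem and 0 to 8 for that of RSV and TCDD. The counts lower were 6 to 16 for Vem, 14 to 24 for RSV, 0 to 15 for TCDD, 0 to 1 for RSV+Vem against RSV, 14 to 15 for RSV+Vem against Vem, 0 to 1 for RSV+TCDD against RSV, 9 to 11 for RSV+TCDD against TCDD, 5 to 8 for the interaction of RSV and Vem and 0 to 2 for that of RSV and TCDD. The medians changed sign for Vem against vehicle (-0.20 to 0.049), TCDD against vehicle (-0.26 to 0.063) and the interaction of RSV and Vem (-0.17 to 0.074). They ranged from -0.57 to -0.17 for RSV against vehicle, from -0.14 to -0.045 for RSV+Vem against RSV, from -0.37 to -0.30 for RSV+Vem against Vem and from 0.027 to 0.31 for the interaction of RSV and TCDD, with vehicle replicates 2 and 1 setting the ends for RSV. A group left with 1 library is assumed to vary like the others. The counts over all tested genes also changed between these fits, so the ranges of counts are not set against a share of all genes. With 1 library in a group the filter on low counts is looser, and SLC16A3, which the report does not test, is among the genes counted in some of these fits.

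A replicate block moved no count by over 1.5 times, with 18 genes lower for RSV and 3 lower for TCDD against vehicle. The replicate numbers were not taken to pair the samples. Over 15 pairs of groups, the differences between replicates correlated above 0.1 in 6 pairs, among them the 3 pairs of RSV groups (0.180 to 0.241), and below -0.1 in the 3 pairs of TCDD with an RSV group.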
